A study of Mus musculus with 4 samples.

Results

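The antigen presentation genes described here were 10 mouse genes chosen by name: 5 of the class I pathway (*H2-K1*, *H2-D1*, *B2m*, *Tap1*, and *Nlrc5*), 4 of the class II pathway (*H2-Aa*, *H2-Ab1*, *Cd74*, and *Ciita*), and *Cd274*. They were 10 of the 21887 protein-coding genes of the GRCm38 gene table, and no measured value enters the rule that names them. These genes and the other gene lists were, however, chosen with earlier results of these data known. Acetylation of histone H3 at lysine 27 (H3K27ac), a mark of active regulatory elements, was mapped by ChIP-Seq in LSECs isolated from mice, in libraries numbered 2 and 3 by their names and called replicates here. The 2 input libraries of the same numbers were not analysed here on their own. The authors deposited 1 list of peaks per library, in which each peak has a fold enrichment over background and a −log10 q-value from their peak caller. Genotype, strain, age, sex, and treatment of the mice are not stated in the labels for any library, and the labels give all libraries the same cell type and no other condition to compare. The study's general method for LSECs is purification from collagenase-perfused liver with anti-CD146 microbeads, followed by plating, and the use of either step for these libraries is not stated separately. Nothing in the labels says whether the libraries came from separate mice, so a difference between them may be technical.

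Cells show peptides to T cells on 2 kinds of MHC molecule. Class I molecules, a polymorphic heavy chain paired with β2-microglobulin, present peptides made in the cytosol by the proteasome and carried into the endoplasmic reticulum by the TAP transporter, and the transactivator NLRC5 drives their genes. Class II molecules present peptides from endocytosed proteins, are escorted by the invariant chain CD74, and depend on the transactivator CIITA. LSECs are known as scavenger cells that can present antigen, and PD-L1, the product of *Cd274*, restrains T cells that recognise it.

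Every class I gene carried H3K27ac near a gene end in both libraries, whereas the class II genes were divided between the chain genes, which carried weak peaks, and *Cd74* and *Ciita*, which carried none there. A peak was assigned to a gene when it overlapped the gene body or the 5 kb on either side, it was called a gene-end peak within 1 kb of either end and distal otherwise, and a region was called shared when peaks of the 2 libraries overlapped by at least 1 bp. Shared gene-end regions were present at 5 of 5 class I genes, at 2 of 4 class II genes, and at *Cd274*, against 44.1% of all protein-coding genes. The class II share was therefore near the background. Shared distal regions were present at 2 of 5 class I genes, 1 of 4 class II genes, and *Cd274*, against 30.1% of all protein-coding genes. The class I genes held 11 shared regions, the class II genes 3, and *Cd274* 2. The median per gene was 2 in class I, 0.5 in class II, and 1 over all protein-coding genes. The class I count rested on the overlap rule, because when the overlap had to reach 50% of both peaks (reciprocal overlap) 2 of 5 class I genes (*Tap1* and *Nlrc5*) and 2 of 4 class II genes had a shared gene-end region, against 22.4% of all protein-coding genes, the replicate 3 peaks at the other 3 class I genes being far wider than those of replicate 2. Because 2 libraries with the same labels allow no test between sets of genes, the difference between the classes is given as a description. No member had a region found in replicate 2 alone, and 9 of the 10, all but *H2-Ab1*, had at least 1 region found in replicate 3 alone.

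**Figure D1:**
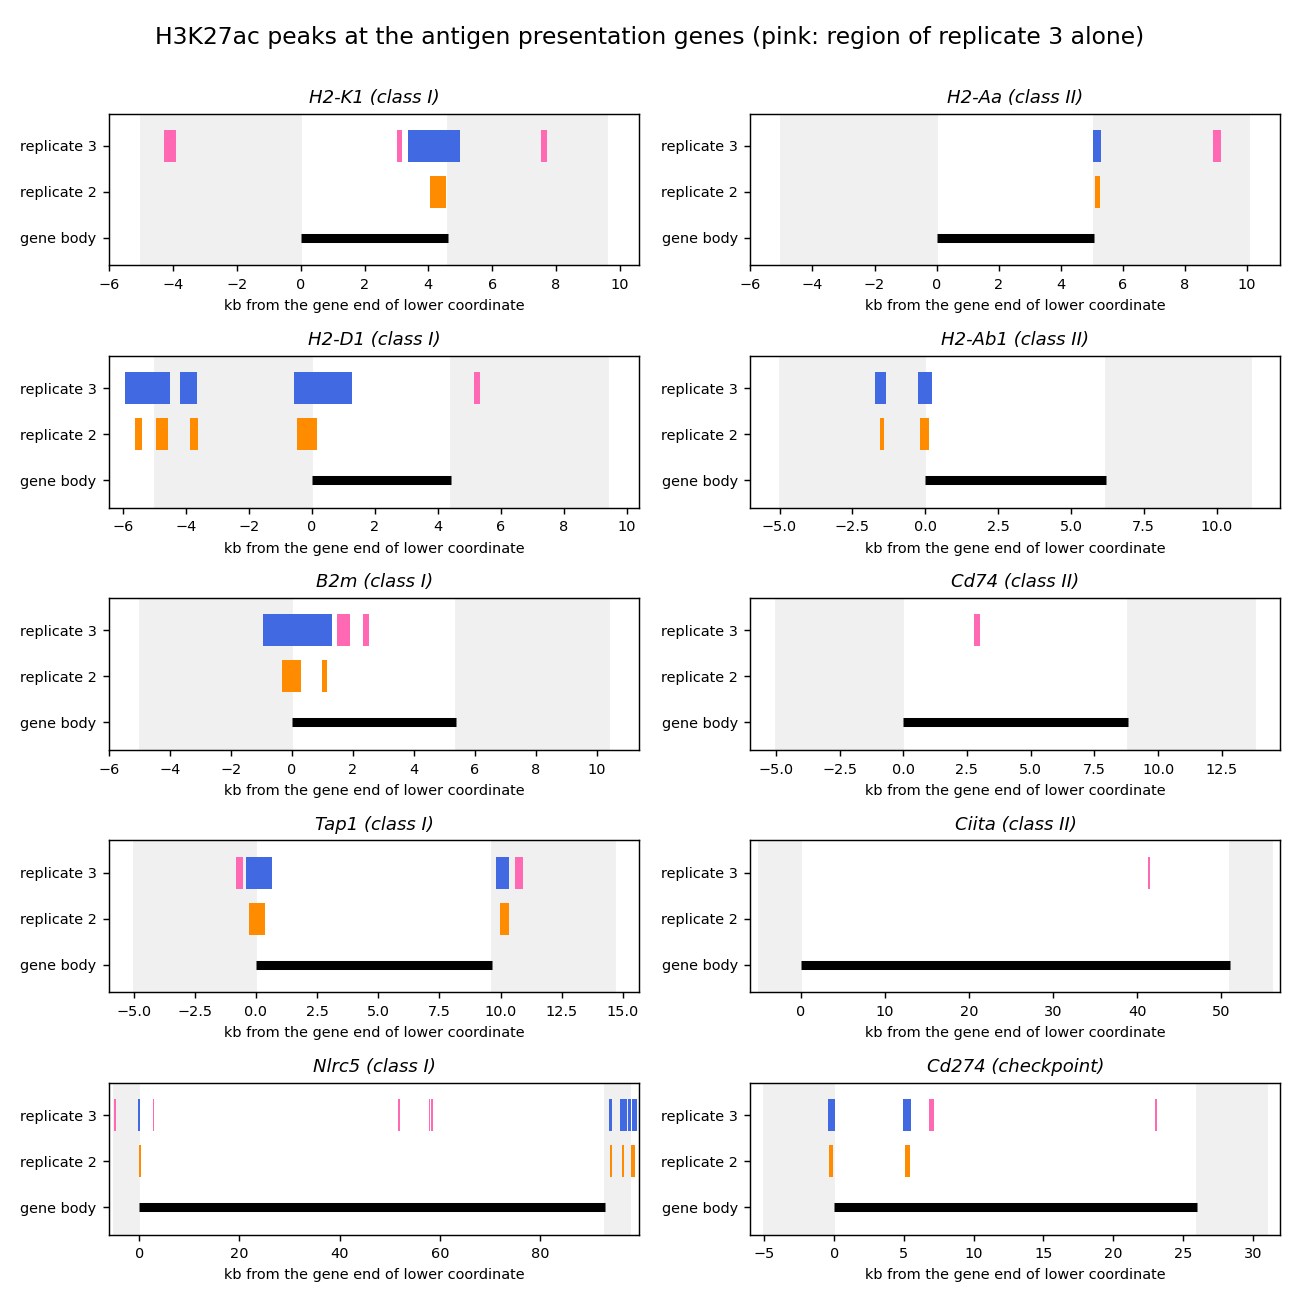
H3K27ac peaks at each gene, plotted by distance in kb from the gene end of lower coordinate; black bars are gene bodies, grey areas the 5 kb flanks, orange and blue boxes the peaks of replicates 2 and 3 in shared regions, and pink boxes regions of replicate 3 alone, with regions that reach past a flank drawn whole. Shared regions number 11 over the 5 class I genes and 3 over the 4 class II genes, and *Cd74* and *Ciita* each show 1 pink box and no orange or blue one.

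The transcription start listed by RefSeq was known for 6 of the 10 genes, and at each of them a shared region lay over the bases just upstream of it. *H2-K1* had 2 listed starts, and its sequence and positions are given from the start at chr17:34000347. Of 17492 genes with a listed start, 7188 had a replicate 2 peak in the 250 bases before it and 8773 a replicate 3 peak. The 250 bases before each start are shown because they are the promoter sequence that the peaks cover. They are given 5′ to 3′ along the gene, from RefSeq on GRCm38.p6, and capitals mark matches on either strand to motifs known from MHC and interferon-responsive promoters.
*H2-K1*, chr17:34000348-34000597, minus strand: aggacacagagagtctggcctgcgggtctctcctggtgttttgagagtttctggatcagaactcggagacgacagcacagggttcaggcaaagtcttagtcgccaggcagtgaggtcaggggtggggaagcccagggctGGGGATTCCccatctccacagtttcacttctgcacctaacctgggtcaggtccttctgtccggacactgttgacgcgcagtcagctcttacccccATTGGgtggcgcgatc
*H2-D1*, chr17:35262844-35263093, plus strand: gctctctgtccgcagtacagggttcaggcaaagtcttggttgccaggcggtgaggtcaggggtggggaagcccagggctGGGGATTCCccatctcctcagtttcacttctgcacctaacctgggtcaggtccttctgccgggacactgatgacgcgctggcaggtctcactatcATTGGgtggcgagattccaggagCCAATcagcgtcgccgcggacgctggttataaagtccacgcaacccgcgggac
*B2m*, chr2:122147437-122147686, plus strand: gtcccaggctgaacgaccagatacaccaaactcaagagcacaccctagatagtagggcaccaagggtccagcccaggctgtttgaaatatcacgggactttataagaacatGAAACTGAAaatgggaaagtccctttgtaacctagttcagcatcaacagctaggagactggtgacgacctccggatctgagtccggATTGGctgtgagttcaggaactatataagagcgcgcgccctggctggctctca
*Tap1*, chr17:34187306-34187555, plus strand: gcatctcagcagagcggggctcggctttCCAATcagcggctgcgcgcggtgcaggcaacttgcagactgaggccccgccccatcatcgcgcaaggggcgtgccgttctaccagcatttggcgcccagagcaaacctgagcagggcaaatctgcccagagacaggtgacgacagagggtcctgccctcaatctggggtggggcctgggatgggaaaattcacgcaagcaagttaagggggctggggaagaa
*H2-Aa*, chr17:34287824-34288073, minus strand: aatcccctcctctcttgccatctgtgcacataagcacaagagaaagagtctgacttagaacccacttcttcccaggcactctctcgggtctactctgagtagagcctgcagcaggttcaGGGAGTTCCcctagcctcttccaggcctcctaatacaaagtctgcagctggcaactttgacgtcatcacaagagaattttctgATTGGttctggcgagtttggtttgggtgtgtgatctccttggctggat
*Cd274*, chr19:29367188-29367437, plus strand: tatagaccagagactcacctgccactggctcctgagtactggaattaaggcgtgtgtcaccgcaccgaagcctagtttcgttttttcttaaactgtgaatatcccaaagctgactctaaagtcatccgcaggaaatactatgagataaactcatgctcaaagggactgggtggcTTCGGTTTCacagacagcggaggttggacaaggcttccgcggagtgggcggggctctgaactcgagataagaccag
Replicate 3 peaks covered all 250 bases at 5 of these genes and 232 at *H2-Aa*. Replicate 2 peaks covered all 250 at *H2-D1*, *B2m*, and *Tap1*, 227 at *Cd274*, 223 at *H2-K1*, and 150 at *H2-Aa*, where the start itself lay under the replicate 3 peak but not under the replicate 2 peak. *Nlrc5*, *H2-Ab1*, *Cd74*, and *Ciita* are named only.

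The motifs searched were the interferon-stimulated response element (GAAANNGAA), the GAS element (TTCNNNGAA), the X box (AGNNACNGA), the Y box (ATTGG), and the NF-κB site (GGGNNTTCC), each on both strands and with N for any base. The 2 class I heavy chain promoters held the same NF-κB match, GGGGATTCC, from -111 to -103 bp of the start in *H2-K1* and from -171 to -163 in *H2-D1*. *H2-Aa* held another, GGGAGTTCC, from -131 to -123. A match to these letters was present in 4.98% of the 32851 promoters of the table. The interferon-stimulated response element matched in *B2m* (GAAACTGAA, -139 to -131) and on the opposite strand in *Cd274* (TTCGGTTTC, -76 to -68), and in 7.13% of all promoters. The Y box matched in *H2-K1*, *H2-D1*, *B2m*, *Tap1*, and *H2-Aa*, and in 33.8% of all promoters. None of the 6 promoters held these letters of the GAS element or the X box, which occurred in 7.02% and 14.7% of all promoters. A match is a description of the sequence and was not tied to any factor here. The search took these exact letters only, so an element spelled otherwise would be missed, and no match does not show its absence. The *H2-K1* and *H2-D1* stretches, set 60 bp apart, were identical at 166 of 190 bases (87.4%), with a longest common run of 47 bases. How reads that match several places were treated is not given in the sources used here, so the split of signal between these 2 genes is uncertain.

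Peak summits lay at similar places in all 6 promoters. Relative to the start, they were at -44, -127, -91, and -76 bp in replicate 2 at *H2-K1*, *H2-D1*, *B2m*, and *Tap1*, and at -32, -75, -64, and -124 bp in replicate 3. At *H2-Aa* the summits were at -100 and -101 bp, and at *Cd274* they were at -80 and -83 bp. A summit within the 250 bp upstream was common among all genes with a peak there, at 70.3% of 7188 genes in replicate 2 and 68.1% of 8773 in replicate 3. The widths differed more than the places. In replicate 3 the peaks over the start measured 1604 bp at *H2-K1*, 1815 bp at *H2-D1*, 2264 bp at *B2m*, and 1050 bp at *Tap1*, all above the median of 941 bp over all genes with such a peak. The *Cd274* peak measured 593 bp and the *H2-Aa* peak 276 bp, both below the lower quartile of 650 bp. In replicate 2 the same 4 class I peaks measured 501 to 655 bp against a median of 487 bp, the *Cd274* peak 317 bp, and the *H2-Aa* peak 150 bp.

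**Figure D2:**
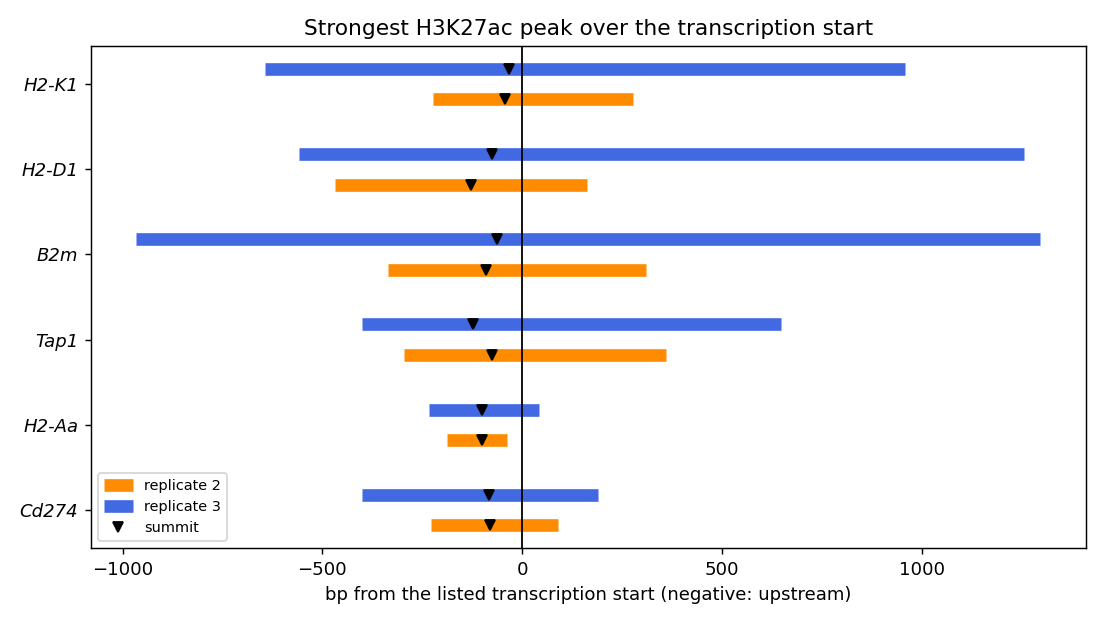
Extent of the strongest H3K27ac peak in the shared region over each listed transcription start, in bp from the start with negative values upstream. Orange and blue bars are the peaks of replicates 2 and 3, and triangles their summits. The replicate 2 bar at *H2-Aa* does not reach the start. All 12 summits lie between -127 and -32 bp, and the bars are shortest at *H2-Aa*, at 150 and 276 bp.

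The class I heavy chain genes *H2-K1* and *H2-D1* were marked at their starts in both libraries, but the libraries ranked *H2-K1* differently. The shared region at the start of *H2-K1* (chr17:33999388-34000991) was enriched 12.8-fold in replicate 2 and 81.1-fold in replicate 3. Fold enrichments are not on the same scale in the 2 lists, so each was also ranked within its own list, and *H2-K1* stood at the 63.6th percentile in replicate 2 and the 97.2nd in replicate 3. The region of *H2-D1* (chr17:35262536-35264350) had fold enrichments of 26.0 and 51.8, at percentiles 91.3 and 92.0. Among class I genes, *H2-D1* was therefore first in replicate 2 and *H2-K1* first in replicate 3. *H2-D1* had 2 further shared regions, 4529 and 3636 bp outside the gene end of lower coordinate, which is its start side. The farther one (chr17:35257144-35258565) had fold enrichments of 8.79 and 33.1, and the nearer one (chr17:35258886-35259458) 9.49 and 11.0. *H2-K1* had no shared distal region, and its 3 distal peaks in replicate 3 had fold enrichments of 16.2, 5.40, and 3.58. Of the replicate 3 peaks anywhere in the genome that came within 10% of that first value, 61.4% had a replicate 2 peak, which this one lacked.

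*B2m*, which encodes the light chain common to class I molecules, had 1 shared region over its start (chr2:122146721-122148984). It was enriched 20.4-fold in replicate 2 and 51.4-fold in replicate 3, at percentiles 84.2 and 91.9 of each list. For comparison, the strongest gene-end peak of a protein-coding gene stood at a median percentile of 75.0 in replicate 2 and 87.6 in replicate 3. At 2264 bp the *B2m* region was the widest region of the 10 genes, and it held 2 separate peaks in replicate 2 and 1 in replicate 3. *Tap1*, a subunit of the peptide transporter, had fold enrichments of 16.3 and 54.0 over its start (chr17:34187154-34188203), at percentiles 75.0 and 92.6. This region also lay within 1 kb of an end of *Psmb9*, an immunoproteasome subunit gene. A second shared region of *Tap1* (chr17:34197353-34197894; fold enrichments 9.76 and 34.0) lay 128 bp outside its other end and also within 1 kb of an end of *Psmb8*, another immunoproteasome subunit gene. Neither region can be assigned to *Tap1* alone, and with regions near other genes' ends left out *Tap1* had none.

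*Nlrc5*, the class I transactivator gene, was the lowest-ranked class I gene at its ends, and with 9 peaks in replicate 3 it had the most there, in a window of 102.9 kb against 14.4 to 19.7 kb for the other 4. In replicate 2 it had 3 peaks, as many as *H2-D1*. Its gene body of 92.9 kb had a shared region at the end of lower coordinate (chr8:94434085-94434499) with fold enrichments of 6.10 and 9.63, at percentiles 15.3 and 53.0. At the other end, a shared region (chr8:94528138-94528751) had fold enrichments of 10.8 and 28.0, at percentiles 54.2 and 81.7. Its replicate 2 peak by itself lay farther than 1 kb from the gene end. Beyond that end were 2 stronger shared regions, at 3105 bp (12.8 and 43.3) and at 4681 bp (19.2 and 42.3), and the latter was also within 1 kb of an end of *Cpne2*. A further 5 distal peaks were in replicate 3 alone, with fold enrichments of 4.76 to 10.1. The table used gives no strand for *Nlrc5*, so its start was not located.

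Both class II chain genes had a shared gene-end region, and in each list these ranked below the strongest gene-end peaks of *H2-K1*, *H2-D1*, *B2m*, and *Tap1*. *H2-Aa*, the α chain gene of I-A, had fold enrichments of 8.13 and 13.3 in the region over its start (chr17:34287780-34288055), at percentiles 38.2 and 64.3. The replicate 2 peak by itself lay just upstream of the start. *H2-Ab1*, the β chain gene, had 7.15 and 16.96 at the gene end of lower coordinate (chr17:34262986-34263449), at percentiles 28.1 and 71.0. These values were low beside all protein-coding genes, whose strongest gene-end peak stood at a median percentile of 75.0 in replicate 2 and 87.6 in replicate 3. The LSEC marker genes described below were lower than that too. Those with such a peak had a median of 63.4 in replicate 2 and 70.3 in replicate 3, near the class II values in replicate 3. Each gene was also ranked among genes with such a peak, with tied genes given the middle rank. There *H2-Aa* stood at percentiles 14.6 and 17.5 in the 2 libraries and *H2-Ab1* at 9.37 and 22.6. In the same ranking *H2-K1* stood at 35.8 and 84.6, *H2-D1* at 78.4 and 63.4, *B2m* at 64.3 and 63.0, *Tap1* at 50.5 and 65.5, and *Nlrc5* at 4.59 and 36.7. The *Nlrc5* values came from opposite ends of the gene. The −log10 q-values of replicate 2, 9.91 at *H2-Aa* and 8.80 at *H2-Ab1*, were lower than those of the start peaks of *H2-K1*, *H2-D1*, *B2m*, and *Tap1*, which were 20.9 to 59.3. *H2-Ab1* also had the only shared distal region of the class II genes (chr17:34261491-34261895), 1332 bp outside the same gene end, with fold enrichments of 5.49 and 13.7. In replicate 2 its −log10 q-value was 4.95, so this region was lost at a q-value of 1e-05. *H2-Aa* had a distal peak in replicate 3 alone, with a fold enrichment of 11.5.

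*Cd74* and *Ciita* had no peak in replicate 2 anywhere in the gene body or its flanks, and no gene-end peak in replicate 3. In *Cd74*, the invariant chain gene, the only replicate 3 peak was 239 bp wide and lay in the gene body, 2768 bp from the end of lower coordinate. Its fold enrichment was 6.21, at the 32.3rd percentile, and the nearest shared region was 28.4 kb away, at an end of *Rps14*. In *Ciita*, the class II transactivator gene, the only peak was at chr16:10521263-10521486 in the gene body, 9578 bp from the end of higher coordinate. Its fold enrichment was 5.70, at the 25.9th percentile, and the nearest shared region was 11.5 kb away, at an end of *Dexi*. Replicate 3 peaks of such strength seldom had a replicate 2 peak. Of 7467 peaks as strong as the *Cd74* peak to within 10%, 5.57% had one (95% Wilson interval, 5.07% to 6.11%), and at the strength of the *Ciita* peak 3.83% of 9192 did (3.46% to 4.24%). These intervals describe counts of peaks only. Of all protein-coding genes, 33.1% had no peak of either library, and none of the 10 genes was among them.

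**Figure D3:**
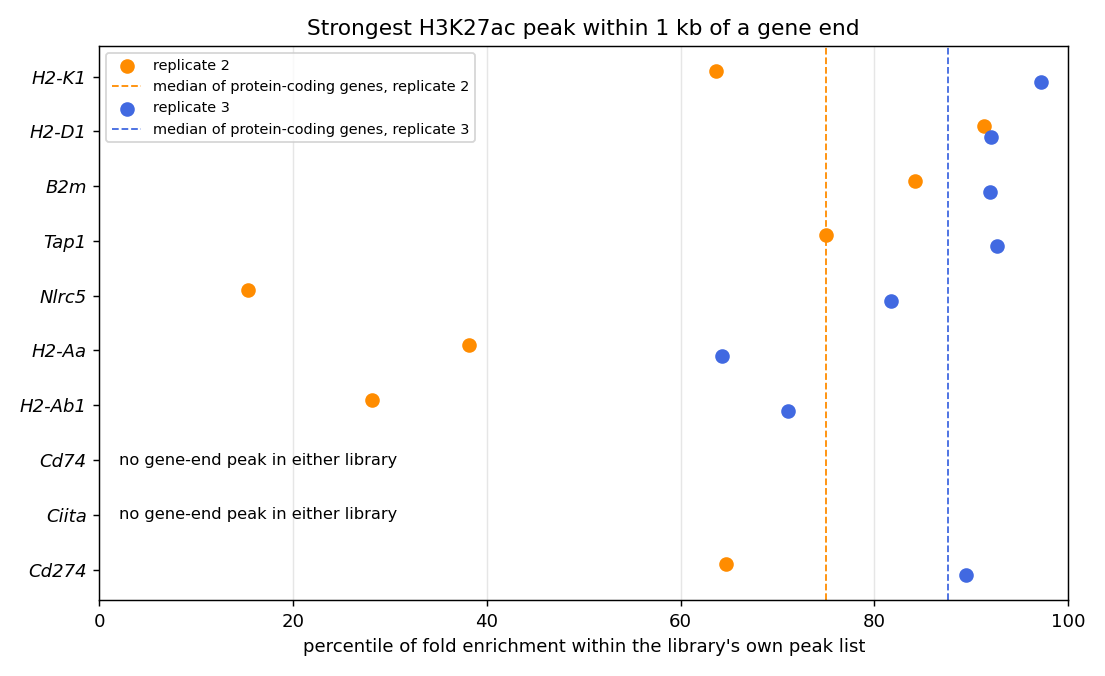
Percentile of the strongest gene-end H3K27ac peak of each gene within its own library's peak list, on a linear axis from 0 to 100; dashed lines are the medians over protein-coding genes with such a peak, 75.0 in replicate 2 and 87.6 in replicate 3. *H2-Aa* and *H2-Ab1* lie left of both lines, *H2-D1* and *B2m* lie right of the line in their own colour in both libraries, and *Cd74* and *Ciita* have no point.

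Counted by library, gene-end peaks were present at all 5 class I genes, at the same 2 of 4 class II genes, and at *Cd274* in replicate 2, where the background was 43.4%. The counts were the same in replicate 3, where the background was 53.9%. What changed between the libraries was the number of peaks. The class I genes had 11 peaks in replicate 2 and 24 in replicate 3, and the class II genes 3 and 6. The strongest gene-end peaks of class I genes had a median percentile of 75.0 (range, 15.3 to 91.3) in replicate 2 and 92.0 (81.7 to 97.2) in replicate 3. Over all protein-coding genes with such a peak the median was 75.0 in replicate 2, the same as in class I, and 87.6 in replicate 3. For the 2 class II genes with such a peak the values were 28.1 and 38.2 in replicate 2 and 64.3 and 71.0 in replicate 3. The 2 ranges overlapped in replicate 2, through *Nlrc5*, and did not overlap in replicate 3. This change came from the 1 kb limit, because the *Nlrc5* values were taken at opposite gene ends. Its region at the end of lower coordinate stood at 15.3 and 53.0, below both class II genes in each library. The region at its other end stood at 54.2 and 81.7, above both. Peaks covered 0.902% to 8.91% of the window of a class I gene in replicate 2 and 3.62% to 21.0% in replicate 3, with *Nlrc5* lowest and *H2-D1* highest in both. In class II genes they covered 0% to 2.64% and 0.367% to 5.37%, highest at *H2-Ab1*.

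*Cd274*, the gene of the checkpoint ligand PD-L1, had 2 shared regions, which ranked alike in replicate 3 but not in replicate 2. The region at the gene end of lower coordinate (chr19:29361699-29362160) had fold enrichments of 12.9 and 43.6, at percentiles 64.7 and 89.4. It lay 5278 bp upstream of the transcription start listed by RefSeq. The region over that start (chr19:29367036-29367628) had fold enrichments of 9.19 and 42.2, at percentiles 46.1 and 88.9. It was counted as distal because the gene table begins the gene farther upstream, and it also lay within 1 kb of an end of *Plgrkt*. Another peak, at chr19:29368938-29369252, was in replicate 3 alone, although its fold enrichment of 14.7 was one at which 52.4% of replicate 3 peaks had a replicate 2 peak. In both libraries the gene-end percentile of *Cd274* lay above those of *H2-Aa*, *H2-Ab1*, and *Nlrc5* and below those of *H2-D1*, *B2m*, and *Tap1*. It lay above that of *H2-K1* in replicate 2 and below it in replicate 3.

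Of 19 other genes of the class I pathway, 15 (78.9%) had shared gene-end regions, against the background of 44.1%. With reciprocal overlap the count was 6, against 22.4% of all protein-coding genes, and with regions near other genes' ends left out it was 10, against 31.2%. The highest value in both libraries was at *Calr*, the gene of the chaperone calreticulin, with fold enrichments of 41.5 and 146. Next came *Pdia3*, whose product takes part in peptide loading, in replicate 2 (33.9 and 99.0) and *Psme2*, a proteasome activator subunit gene, in replicate 3 (25.0 and 114). The nonclassical heavy chain genes *H2-Q4*, *H2-Q6*, and *H2-Q7* had 22.0 to 23.8 in replicate 2 and 58.8 to 67.8 in replicate 3, but they closely resemble each other and the classical genes, so their split is uncertain too. *Tap2*, the partner subunit of *Tap1*, was low at 5.41 and 10.5. *Psmb8* and *Psmb9* were counted through the same regions as *Tap1*, and the regions of *Tapbp*, *Psme2*, and *Pdia3* lay within 1 kb of an end of another gene as well. The 4 genes without a shared gene-end region were *H2-T23*, *Tapbpl*, and *Psme1*, which had gene-end peaks in replicate 3 alone, and *Cd1d1*, which had a shared distal region.

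Other genes of the class II pathway had shared gene-end regions at 6 of 13 (46.2%), near the background of 44.1%. With reciprocal overlap the count was 4, against 22.4% of all protein-coding genes, so the contrast with the class I pathway (6 of 19) was not kept. With regions near other genes' ends left out it was 4, against 31.2%. Of the 6 genes, 2 encode a class II chain or a chain of the exchange factor. *H2-Eb1*, the β chain gene of I-E, had fold enrichments of 7.46 and 14.0, at percentiles 32.3 and 65.7, which lay between those of *H2-Aa* and *H2-Ab1* in both libraries. *H2-DMa*, a chain of the peptide exchange factor, had 30.5 and 64.7, but a region at its end also lay within 1 kb of an end of *Brd2*. The other 4 encode the lysosomal proteases *Ctsl* (26.4 and 90.3) and *Lgmn* (18.3 and 47.1) and the RFX subunits *Rfxap* (17.6 and 63.5) and *Rfxank* (26.4 and 77.4), which bind the X box of class I and class II promoters alike. Regions of *Rfxank* were within 1 kb of ends of *Borcs8*, *Nr2c2ap*, and *Gm45929* as well. *H2-DMb1* and *Ifi30* had gene-end peaks in replicate 3 alone, *H2-DMb2*, *H2-Ob*, and *Rfx5* had none at a gene end, and *H2-Oa* and *Ctss* had no peak of either library.

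Both receptor genes and all signalling genes of the interferon γ axis that were examined had shared gene-end regions, 7 of 7 against the background of 44.1%. With reciprocal overlap 2 of 7 were left, near the 22.4% of all genes. Examples are fold enrichments of 36.6 and 70.0 at *Ifngr1*, 15.6 and 35.1 at *Ifngr2*, 26.4 and 102 at *Jak2*, and 17.7 and 59.3 at *Irf1*. This signalling route is known to induce *Ciita*, *Nlrc5*, and *Cd274*. Among co-stimulatory and co-inhibitory ligands, 4 of 10 (40.0%) had one. They were *Cd40* (9.49 and 24.7), *Vsir* (8.13 and 20.5), *Lgals9* (7.32 and 17.1), and *Icosl* (4.09 and 12.0). *Pdcd1lg2*, the gene of the other PD-1 ligand, and *Cd80* had shared distal regions only, *Cd276* and *Tnfsf4* had distal peaks in replicate 3 alone, and *Cd86* and *Vtcn1* had no peak of either library. All 4 marked ligand genes had lower fold enrichments than the gene-end region of *Cd274*, 12.9 and 43.6.

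**Figure D4:**
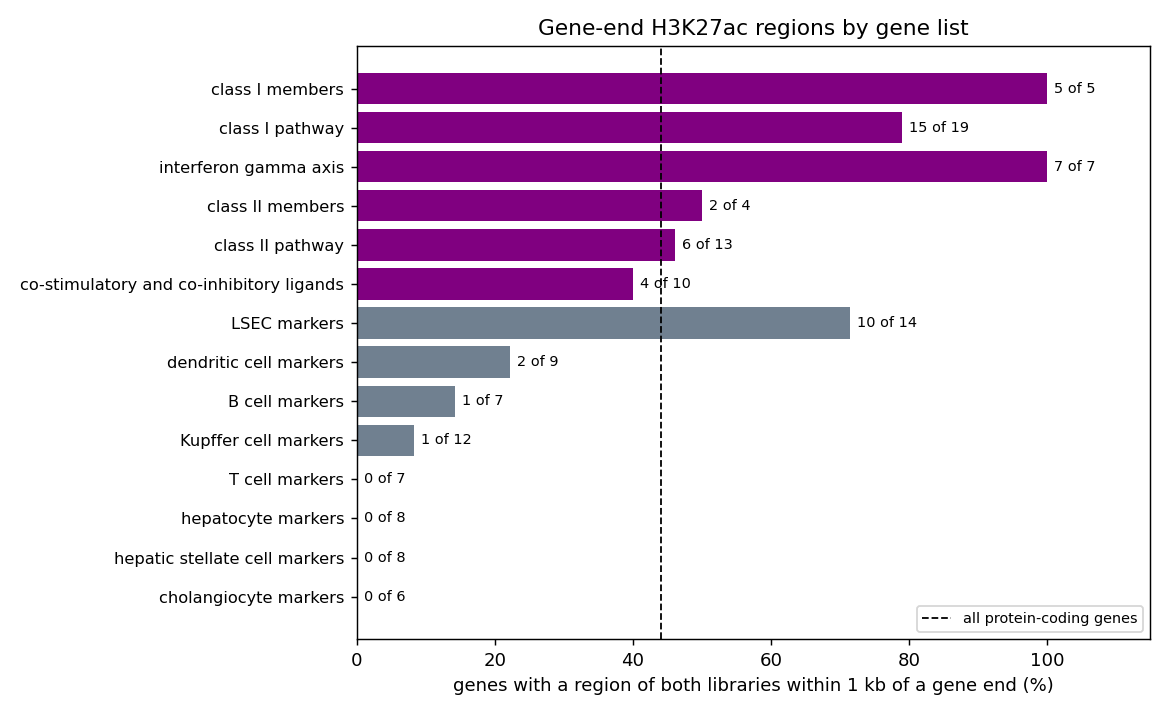
Percentage of genes in each list with a shared H3K27ac region within 1 kb of a gene end, as bars from 0 with the counts beside them; the dashed line is the 44.1% of all protein-coding genes. The class I pathway (15 of 19) and the interferon γ axis (7 of 7) lie right of the line, and the class II pathway (6 of 13) and the ligands (4 of 10) lie near it. With reciprocal overlap, not drawn, the class I pathway count was 6 of 19 and the class II pathway count 4 of 13.

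Marker genes were read in the same way, because dendritic cells, B cells, and Kupffer cells, which express class II molecules strongly, could be present in a bead-purified preparation. LSEC markers had shared gene-end regions at 10 of 14, against 44.1% of all protein-coding genes, and the other 4 (*Stab2*, *Clec4g*, *Mrc1*, and *Mcam*, the gene of CD146) had gene-end peaks in replicate 3 alone and shared distal regions. The 5 lists of leukocyte markers had them at 4 of 36 (11.1%), and the markers of hepatocytes, hepatic stellate cells, and cholangiocytes at 0 of 22. By type the leukocyte counts were 1 of 12 for Kupffer cells (*Cd68*), 2 of 9 for dendritic cells (*Xcr1* and *Batf3*), 1 of 7 for B cells (*Cd79a*), 0 of 7 for T cells, and 0 of 1 for *Ptprc*, the pan-leukocyte gene of CD45, which had no peak of either library. Of these 4 genes, *Batf3* alone had a region that was not also near an end of another gene. In replicate 3 by itself, where the background was 53.9%, gene-end peaks were present at 14 of 14 LSEC markers, 5 of 9 dendritic cell, 3 of 7 T cell, 2 of 7 B cell, 1 of 12 Kupffer cell, 2 of 8 hepatocyte, 1 of 8 hepatic stellate cell, and 1 of 6 cholangiocyte markers. Of the 12 Kupffer cell markers, 9 had no peak of either library, *Adgre1* and *Clec4f* among them, and *Csf1r* and *Folr2* had shared distal regions. The dendritic cell genes *Itgax*, *Zbtb46*, and *Clec9a* had gene-end peaks in replicate 3 alone, and *Zbtb46* and *Clec9a* also had shared distal regions. Shared distal regions were present at 13 of 14 LSEC markers, against 30.1% of all protein-coding genes. The counts were 3 of 12 for Kupffer cell, 2 of 9 for dendritic cell, 2 of 7 for B cell, and 2 of 7 for T cell markers. They were 2 of 8 for hepatocyte, 0 of 8 for hepatic stellate cell, and 1 of 6 for cholangiocyte markers. Among LSEC markers, the strongest gene-end peaks had a median percentile of 63.4 in replicate 2 and 70.3 in replicate 3. Over all protein-coding genes with such a peak it was 75.0 and 87.6. In a bulk preparation, fewer cells with a marked gene and less marking per cell cannot be told apart, which applies to the low values at *H2-Aa* and *H2-Ab1*. The part of other cells in those values was not tested.

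The replicate 2 list held 26975 peaks and the replicate 3 list 64498. Of these, 99.2% and 37.7% overlapped a peak of the other library. The lists give no read counts, so depth is unknown, and the absence of a peak in replicate 2 says only that none was called there.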

How the data were processed

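H3K27ac ChIP-Seq peaks of 2 LSEC libraries were analysed. The submitters' processing notes name the build mm10 (GRCm38) and the tools cutadapt, BWA 0.7.17, Picard 1.67, MACS2 2.0.10, and bedtools 2.27.1. The authors deposited 1 list per library, with positions, a score, a fold enrichment (a ratio), −log10 p- and q-values, and other columns such as the summit. Whether inputs entered the calls, and how reads with several matches were treated, is not given in the sources used here. Depth per sample is unknown, so no interval based on reads was computed. Positions were counted from 1.

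The members and gene lists were chosen with earlier results of these data known. The genes named are the 10 members, genes of the pathway and marker lists, and genes whose ends share a member's region. Some genes of the lists enter the counts but are not reported here. Peaks were matched to gene bodies plus 5 kb of the RefSeq GRCm38.p6 table, which gives neither strand nor exons. Fold enrichments were compared only within a list, as values or percentiles. Shares over all protein-coding genes served as background, and no significance test was run. The matching was tested on simulated data. Alternatives were other flanks, gene-end distances, q-values, equal peak numbers, reciprocal overlap, regions near other genes left out, and single libraries. Calculations were made with pandas 2.3.3 and numpy 2.4.6 in Python 3.11.15, and plots with matplotlib 3.10.9.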

Additional observations from a re-analysis of the deposited data

How the results depend on the processing

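Of 420 values (42 results under 10 alternatives), 351 stayed within 1.5 times the value reported. Reciprocal overlap of at least 50% fails by construction where the narrower peak is less than 50% as wide as the wider. It left shared gene-end regions at 2 of 5 class I genes (*H2-K1*, *H2-D1*, and *B2m* lost theirs), shared distal regions at 0 genes of either class, and 3 class I regions. It also left 6 other class I pathway genes, 4 other class II pathway genes, 2 of the ligand genes, 2 genes of the interferon γ axis, and 4894 protein-coding genes with a shared gene-end region. Flanks of 2 kb, which contain fewer peaks, gave 7 class I regions and 0 class I genes with a shared distal region, and flanks of 10 kb gave 2 class II genes with one. No class II gene had a shared distal region (0) with gene ends widened to 2.5 kb or at a q-value of 1e-05 or less. Leaving out regions near other genes' ends left 1 at *Cd274*. Counted from each library alone, class I regions ranged from 11 (replicate 2) to 24 (replicate 3), class II regions from 3 to 6, *Cd274* regions from 2 to 4, class I genes with a distal region from 2 to 4, and class II genes with one from 1 to 4. Counting a listed transcription start as a gene end, an alternative chosen after seeing the data, gave *Cd274* 2 shared gene-end regions. No paired analysis was possible because the labels put both H3K27ac libraries in 1 group, and the inputs that share their numbers were not analysed here.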
